A study of Mus musculus with 6 samples.

Results

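The mature products of 3 mouse hairpins, mir-28a, mir-151 and mir-708, were followed in pancreatic islets. They were chosen by name, as the 5p and 3p arm of each hairpin (mmu-miR-28a-5p, mmu-miR-28a-3p, mmu-miR-151-5p, mmu-miR-151-3p, mmu-miR-708-5p and mmu-miR-708-3p), and make up 6 of the 1011 miRNAs in the deposited count table. The islets came from mice fed the diets labelled HFD and NCD, with 3 small RNA libraries per diet. All libraries were labelled as primary islets. No strain, age, sex, feeding time or number of animals per library is given in the labels, nor whether a library is 1 animal or a pool. Both diets share the same tissue, RNA isolation and library kit.

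A miRNA is cut from a hairpin precursor that can yield a mature strand from each side, named 5p and 3p after its place in the hairpin. The strand loaded into an Argonaute protein recognises messenger RNAs mainly through its seed, bases 2 to 8. The hairpins of this family lie within protein-coding genes, and mir-28 and mir-151 are known as products of old LINE-2 repeats. In beta cells miR-708-5p has been reported as induced by endoplasmic reticulum stress together with its host gene. Its reported targets include neuronatin, a small membrane protein of the beta cell. miR-28-5p is known mainly from lymphocytes, where it restrains growth, and human miR-151-5p from liver cancer cells, where it promotes migration together with the kinase encoded by its host gene.

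The 6 mature sequences are shown as deposited, because the 5p arms share a stretch that the 3p arms lack. Capitals mark the seed, bases 2 to 8 from the 5′ end.
miR-28a-5p: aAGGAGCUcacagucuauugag
miR-708-5p: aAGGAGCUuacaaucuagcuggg
miR-151-5p: uCGAGGAGcucacagucuagu
miR-28a-3p: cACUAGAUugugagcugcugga
miR-708-3p: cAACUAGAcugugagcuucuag
miR-151-3p: cUAGACUGaggcuccuugagg
For 4 of the 6, the arms of mir-28a and mir-708, the RefSeq entry (GRCm38.p6) has the same sequence.

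miR-28a-5p and miR-708-5p have the same seed, AGGAGCU, and were the 2 listed miRNAs with it at bases 2 to 8. In miR-151-5p these letters stand at bases 4 to 10, so its seed differs. Read on the given strand, the letters AGGAGCU occur anywhere in 6 of the 1011 listed sequences, or 0.593%. The other carriers are miR-339-5p, miR-3544-5p and miR-7663-3p, which hold them at base 13 or later. miR-28a-5p and miR-151-5p share an unbroken run of 16 bases, and no source used here says how a read matching more than 1 name was counted. The seeds of the 3p arms all differ, although each arm holds CUAGA near its start, at bases 3 to 7 in miR-28a-3p, 4 to 8 in miR-708-3p and 1 to 5 in miR-151-3p. CUAGA occurs anywhere in 1.09% of listed sequences.

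Each mature sequence matched 1 annotated mouse miRNA hairpin (GENCODE M21, GRCm38), and each hairpin lies in an intron on the strand of its host. Mir28a is at chr16:24827855-24827940 (plus strand) in Lpp, which encodes a LIM-domain protein of focal adhesions. Mir151 is at chr15:73254815-73254882 (minus strand) in Ptk2, which encodes focal adhesion kinase, and also within an intron of the antisense gene 1700085D07Rik. Mir708 is at chr7:96249424-96249532 (plus strand) in Tenm4, which encodes a teneurin, a large cell-surface protein. Host transcripts were not measured.

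Library totals ran from 9431818 to 11059628 counts in HFD and from 7166712 to 11172255 counts in NCD islets. Levels are CPM on library totals scaled by TMM factors, which lay between 0.84 and 0.995 in 5 libraries and at 1.73 in NCD 3, so NCD 3 stands apart. After removal of rarely counted miRNAs, 406 of the 1011 were left for testing. The labelled tissue was checked against 5 islet endocrine miRNAs, whose summed level was 447830 to 547263 CPM in HFD and 261463 to 601496 CPM in NCD libraries, led by miR-375-3p. The lowest sum was that of NCD 3, where the TMM factor of 1.73 lowers every scaled level. It is therefore not a lower share of the reads by itself.

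The family was a small fraction of the islet miRNA pool. Its 6 members together took 0.0843% to 0.151% of reads in HFD and 0.103% to 0.169% in NCD libraries. Ordered by mean level, miR-151-3p came first, at place 33 of the 1011 listed miRNAs. miR-28a-3p (place 110) and miR-708-3p (123) followed, then miR-28a-5p (212), miR-151-5p (285) and miR-708-5p (441). The ranges of neighbours in this order over the 6 libraries did not overlap, except those of miR-28a-3p and miR-708-3p. Differences in level between miRNAs also carry the bias of adapter ligation, which favours some miRNA ends over others, and are a description only.

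**Figure D1:**
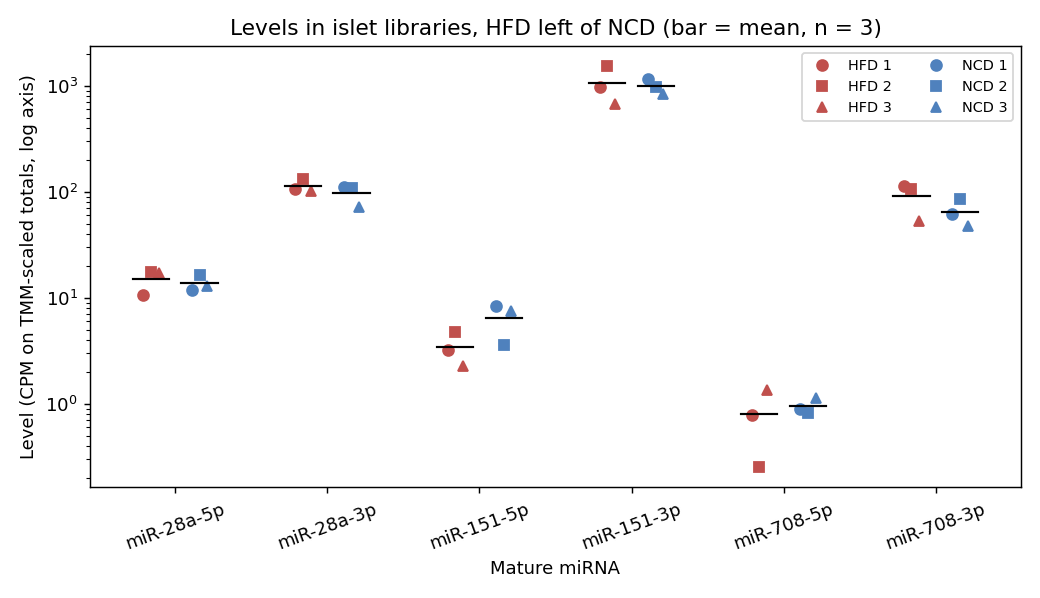
Level of each mature miRNA in each library (CPM on TMM-scaled totals, log axis), with HFD in red left of NCD in blue, a symbol per replicate and a bar at the mean of 3 libraries. The 3p arm of each hairpin lies above its 5p arm in all 6 libraries, and the diets overlap for all 6 miRNAs.

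Of the 6 members, 5 passed the filter and were tested between diets, and 0 were called at an adjusted p of 0.05 (quasi-likelihood test of edgeR, adjusted over all 406 miRNAs by Benjamini-Hochberg). The background was 1 called miRNA of 406, or 0.246%. At an unadjusted p under 0.05 the count was also 0 of 5, where 10.1% of all tested miRNAs were under it. DESeq2 and limma-voom called 0 members as well. The levels of the diets overlapped for each of the 6 members, against 15.3% of tested miRNAs without overlap. The median log2 fold change, HFD over NCD, was 0.14 over the 5 tested members and 0.015 over all tested miRNAs. The labels do not say that the libraries came from separate animals, so p-values measure the spread between these libraries, which may be technical.

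miR-708-5p carries the name best known from stressed beta cells, and it was close to the detection limit. Its counts were 7, 2 and 15 in HFD 1, 2 and 3, against 6, 8 and 16 in NCD 1, 2 and 3. These correspond to 0.780, 0.252 and 1.36 CPM in the HFD libraries and to 0.890, 0.820 and 1.14 CPM in the NCD libraries. HFD islets thus held both the lowest and the highest scaled level, with the NCD levels in between. On unscaled totals NCD 3 was the highest, at 0.000197% of reads. The exact 95% Poisson interval was 0.0306 to 0.912 CPM in HFD 2 and 0.763 to 2.25 CPM in HFD 3. A count of 0 would have allowed up to 0.379 CPM in HFD 2, taken as 3 counts, so its 2 counts lie under that limit. Both the interval and the limit describe counting alone, because the reads carry no molecular identifiers and several can stem from 1 molecule. Over each diet the counts summed to 24 in HFD and 30 in NCD islets. The miRNA did not pass the filter, which asks for 10 counts at the median depth (0.995 CPM on raw totals) in 3 libraries and was met in 2. Tested without a filter, its log2 fold change was -0.25 ± 0.79 (SE; edgeR adjusted p = 0.901), an error that leaves a small or moderate difference between diets not detectable at this depth.

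miR-708-3p, the opposite strand of the same hairpin, was readily counted. It had 115, 107 and 52.9 CPM in HFD 1, 2 and 3, against 62.2, 85.8 and 47.4 CPM in NCD 1, 2 and 3. HFD 1 and HFD 2 lay above each NCD library, while HFD 3 lay between NCD 1 and NCD 3. HFD libraries averaged 91.6 ± 33.7 CPM and NCD libraries 65.1 ± 19.4 CPM (SD, n = 3 each). The log2 fold change was 0.49 ± 0.38 (SE), a 1.41-fold ratio that did not pass (edgeR adjusted p = 0.627). It was positive under 15 of 15 alternative settings, from 0.11 to 0.74. The value was 0.11 with limma-trend on log2(TPM + 1), 0.26 without HFD 1 and 0.29 without NCD 3.

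miR-28a-3p, the more abundant strand of mir-28a, varied least among the members in HFD islets. It had 107, 133 and 103 CPM in HFD 1, 2 and 3, against 110.1, 108 and 72.2 CPM in NCD 1, 2 and 3. At these scaled levels NCD 3 was the lowest library and HFD 2 the highest, with the other 4 within a narrow range. On unscaled totals NCD 3, whose TMM factor was 1.73, was instead the highest, at 0.0125% of reads. HFD libraries averaged 114 ± 16.1 CPM and NCD libraries 96.8 ± 21.3 CPM (SD, n = 3 each). The log2 fold change was 0.24 ± 0.32 (SE; edgeR adjusted p = 0.796), and -0.088 with library totals only, a scaling that lowers the median over all tested miRNAs to -0.37. It ran from 0.048 to 0.32 with 1 library left out, and was 0.048 without NCD 3 and 0.084 without HFD 2.

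miR-28a-5p, which has the seed of miR-708-5p, was above miR-708-5p in each library. It had 10.7, 17.5 and 17.3 CPM in HFD 1, 2 and 3, against 11.9, 16.5 and 12.9 CPM in NCD 1, 2 and 3. HFD libraries held both its lowest and its highest scaled level, while on unscaled totals NCD 3 was the highest, at 0.00223% of reads. The log2 fold change was 0.14 ± 0.39 (SE; edgeR adjusted p = 0.918), and its direction turned under 6 of 15 alternatives, for example to -0.23 with library totals only and to -0.019 without HFD 2.

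miR-151-3p was the most abundant member, and its level spread more widely over the HFD than over the NCD libraries. It had 976, 1537 and 671 CPM in HFD 1, 2 and 3, against 1161, 968 and 834 CPM in NCD 1, 2 and 3. At these scaled levels HFD 2 was the highest library and HFD 3 the lowest, with the 3 NCD libraries between them. On unscaled totals NCD 3, whose TMM factor was 1.73, was instead the highest, at 0.144% of reads. HFD libraries averaged 1061 ± 439 CPM and NCD libraries 988 ± 165 CPM (SD, n = 3 each). The log2 fold change was 0.10 ± 0.34 (SE; edgeR adjusted p = 0.919). It turned to -0.29 without HFD 2 and to -0.28 with library totals only, and was reversed under 5 of 15 alternatives in all.

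miR-151-5p was the 1 tested member with a negative log2 fold change. It had 3.23, 4.80 and 2.27 CPM in HFD 1, 2 and 3, against 8.46, 3.59 and 7.54 CPM in NCD 1, 2 and 3. NCD 1 and NCD 3 lay above each HFD library, while NCD 2 lay between HFD 1 and HFD 2. The levels rest on 29, 38 and 25 reads in the HFD and 57, 35 and 106 reads in the NCD libraries. HFD libraries averaged 3.43 ± 1.27 CPM and NCD libraries 6.53 ± 2.59 CPM (SD, n = 3 each). The log2 fold change was -0.95 ± 0.51 (SE), a ratio of 0.519, which did not pass (edgeR adjusted p = 0.536, unadjusted 0.0867). The value was negative under each of the 14 alternatives in which it was tested, from -1.38 to -0.74, with adjusted p from 0.321 to 0.886.

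**Figure D2:**
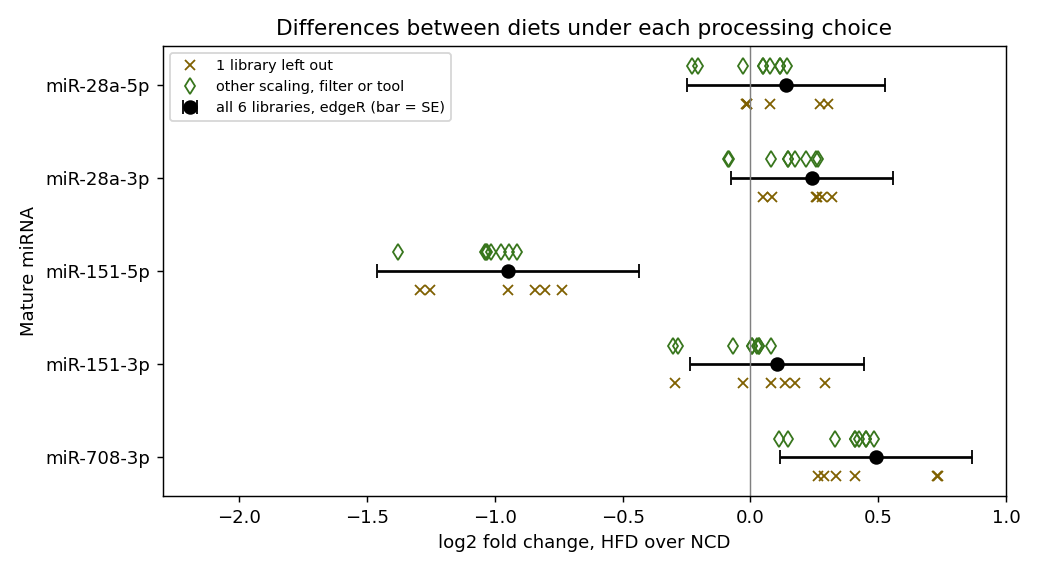
Log2 fold change, HFD over NCD, of the 5 tested members: black points with SE bars from all 6 libraries, crosses with 1 library left out, and diamonds with another scaling, filter or tool. The points of miR-151-5p all lie below 0 and those of miR-708-3p all above it, while the other 3 members have points on both sides.

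The next comparison set the arms of each hairpin against each other within a library, a ratio that does not depend on how libraries are scaled. In all 3 hairpins the 3p strand took most of the reads, but to different degrees. Over all libraries the 5p arm made up 12.4% of mir-28a, 1.22% of mir-708 and 0.503% of mir-151 reads. Among 132 hairpin names with both arms listed and at least 1000 reads, the 5p share had a median of 55.5% and was under 50% for 63 and under 2% for 31. From the lowest share upward, miR-151 stood at place 17, miR-708 at 26 and miR-28a at 48.

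For mir-151 the 5p share was 0.330%, 0.311% and 0.337% in HFD 1, 2 and 3, against 0.723%, 0.369% and 0.896% in NCD 1, 2 and 3. The 3 HFD libraries were nearly alike, and each lay below each NCD library. Exact 95% binomial intervals (Clopper-Pearson) were 0.220% to 0.427% in HFD 2, 0.257% to 0.513% in NCD 2 and 0.734% to 1.08% in NCD 3. NCD 2 was thus within the counting error of the HFD libraries, and NCD 1 and NCD 3 were above it. The log2 ratio of 5p to 3p averaged -8.23 ± 0.065 over the HFD libraries and -7.31 ± 0.66 over the NCD libraries (SD, n = 3 each). HFD minus NCD came to -0.92, with p = 0.1 by exact two-sided permutation, the smallest value that 3 against 3 libraries allow, and 0.3 adjusted over the 3 hairpins. Diets did not overlap for 13 of the 132 hairpin names, or 9.85%, and 6 of them, 4.55%, were lower in HFD. Leaving out 1 library moved the difference to between -1.30 and -0.66, reaching -0.66 without NCD 3.

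For mir-28a the 5p share was 9.07%, 11.7% and 14.4% in HFD 1, 2 and 3, against 9.73%, 13.2% and 15.1% in NCD 1, 2 and 3. The diets covered nearly the same range. The difference in mean log2 ratio was -0.13, with p = 0.7 by exact two-sided permutation (0.7 adjusted), and turned to 0.057 without HFD 1 and to 0.023 without NCD 3.

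For mir-708 the 5p share was 0.675%, 0.235% and 2.51% in HFD 1, 2 and 3, against 1.41%, 0.947% and 2.34% in NCD 1, 2 and 3. HFD libraries were again at both ends. The log2 ratio averaged -6.91 ± 1.60 over the HFD libraries and -5.99 ± 0.64 over the NCD libraries (SD, n = 3 each). HFD minus NCD came to -0.92, less than the SD of the HFD libraries, with p = 0.5 by exact two-sided permutation (0.7 adjusted). Leaving out 1 library moved it to between -1.76 and -0.18, reaching -1.76 without HFD 3, whose share was the highest, and -0.18 without HFD 2, the library with 2 reads of miR-708-5p.

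**Figure D3:**
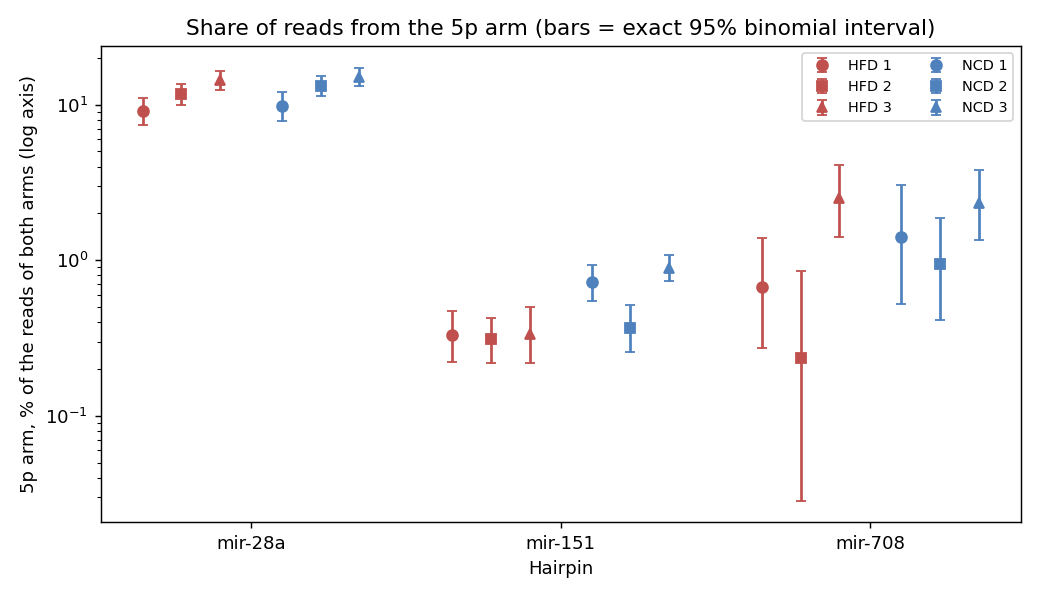
Share of each hairpin's reads that came from the 5p arm (percent of both arms, log axis) in each library, HFD in red left of NCD in blue, with exact 95% binomial intervals for counting error. The mir-151 shares of the 3 HFD libraries lie between 0.311% and 0.337%, below the 3 NCD libraries, while the diets overlap for mir-28a and mir-708.

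Across the 6 libraries the TMM-scaled levels of the 3p arms varied in the same sense, while the arms of 1 hairpin did less so. As a description over 6 libraries, the Pearson r of log2 CPM was 0.716 between miR-28a-3p and miR-708-3p, 0.647 between miR-28a-3p and miR-151-3p, and 0.631 between miR-151-3p and miR-708-3p. Between the arms of a hairpin it was 0.341 for mir-28a and 0.432 for mir-151, and it was not computed for mir-708, whose 5p arm was not tested. Between miR-28a-5p and miR-151-5p it was -0.414. These values share libraries, depth and scaling, and were not computed on unscaled totals. NCD 3, whose TMM factor was 1.73, was the lowest scaled library for miR-28a-3p and miR-708-3p, and the highest unscaled library for miR-28a-3p and miR-151-3p.

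Among the other tested miRNAs, those most like miR-28a-3p over the 6 libraries were miR-25-3p (r = 0.955), miR-12182-3p (0.945) and miR-382-5p (0.924). miR-151-3p was most like miR-499-5p (r = 0.976), miR-184-3p (0.951) and miR-218-5p (0.935). miR-184-3p, a beta-cell miRNA that is lowered by high glucose, had 2431, 3193 and 1314 CPM in HFD 1, 2 and 3, against 2734, 2333 and 1632 CPM in NCD 1, 2 and 3. On these scaled levels HFD 2 was its highest and HFD 3 its lowest library, as for miR-151-3p. miR-708-3p was most like miR-410-5p (r = 0.935), miR-128-3p (0.934) and miR-3064-5p (0.907). Each trio was picked as the highest of all tested miRNAs outside the family, and carries no test. These r values rest on TMM-scaled levels. There NCD 3, whose TMM factor was 1.73, was the lowest library for miR-28a-3p, for miR-708-3p and for the trio of each. On unscaled totals NCD 3 was instead the highest for miR-28a-3p, at 0.0125% of reads. Likeness on unscaled totals was not tested.

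The carriers of AGGAGCU outside the family were rare. miR-339-5p, the 1 tested carrier among them, averaged 0.950 ± 0.173 CPM over the HFD libraries and 2.65 ± 1.59 CPM over the NCD libraries (SD, n = 3 each), and its log2 fold change of -1.56 ± 0.63 (SE) did not pass (edgeR adjusted p = 0.48). miR-3544-5p and miR-7663-3p had 20 and 4 reads over all libraries and were not tested. No listed carrier was named miR-28b or miR-28c, and no row of those names was analysed here.

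The unfolded protein response, the program that endoplasmic reticulum stress starts, has been linked to several other miRNAs. The sensor PERK has been linked to miR-211, miR-204 and the mir-106b/25 cluster, the factor XBP1 to miR-30c-2-3p, and the nuclease IRE1 cleaves precursors of miR-17, miR-34a, miR-96 and miR-125b. Of 20 such miRNAs, 18 were analysed and 17 tested. In this list 6 had a positive and 11 a negative log2 fold change, and 0 were called. The median was -0.15 against 0.015 over all tested miRNAs. The list holds miRNAs reported as induced, such as miR-379-5p, beside ones whose precursors are cleaved. A pooled sign count and median therefore cannot speak to the response. miR-204-5p is also among the islet endocrine markers, and miR-216b-5p among the acinar ones. By unadjusted p, 2 of the 17 were under 0.05, miR-204-5p and miR-455-3p, which were also the 2 without overlap between diets. Over all tested miRNAs, 10.1% were under that p and 15.3% had no overlap, so the list was close to the background by p and not above it by overlap. DESeq2 and limma-voom called 0 of the list.

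The 4 most abundant miRNAs of the list had log2 fold changes of both signs. miR-379-5p, first of a large imprinted cluster that the stress factor CHOP induces in mouse kidney cells, averaged 4420 ± 709 CPM over the HFD libraries and 3384 ± 1139 CPM over the NCD libraries (SD, n = 3 each), and its log2 fold change was 0.39 ± 0.32 (SE). miR-125b-5p averaged 205 ± 49.0 CPM over the HFD libraries and 318 ± 55.9 CPM over the NCD libraries, with a log2 fold change of -0.64 ± 0.31. miR-204-5p, which lowers insulin production in beta cells, had 207, 166 and 208 CPM in HFD 1, 2 and 3, against 329, 254 and 321 CPM in NCD 1, 2 and 3. Each HFD library lay below each NCD library, and the log2 fold change of -0.64 ± 0.29 (SE) did not pass (edgeR adjusted p = 0.48). miR-25-3p had a log2 fold change of 0.33 ± 0.34. miR-455-3p, named after its values were seen, averaged 0.969 ± 0.322 CPM over the HFD libraries and 3.35 ± 1.27 CPM over the NCD libraries, and its log2 fold change was -1.70 ± 0.60 (adjusted p = 0.391 by edgeR).

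**Figure D4:**
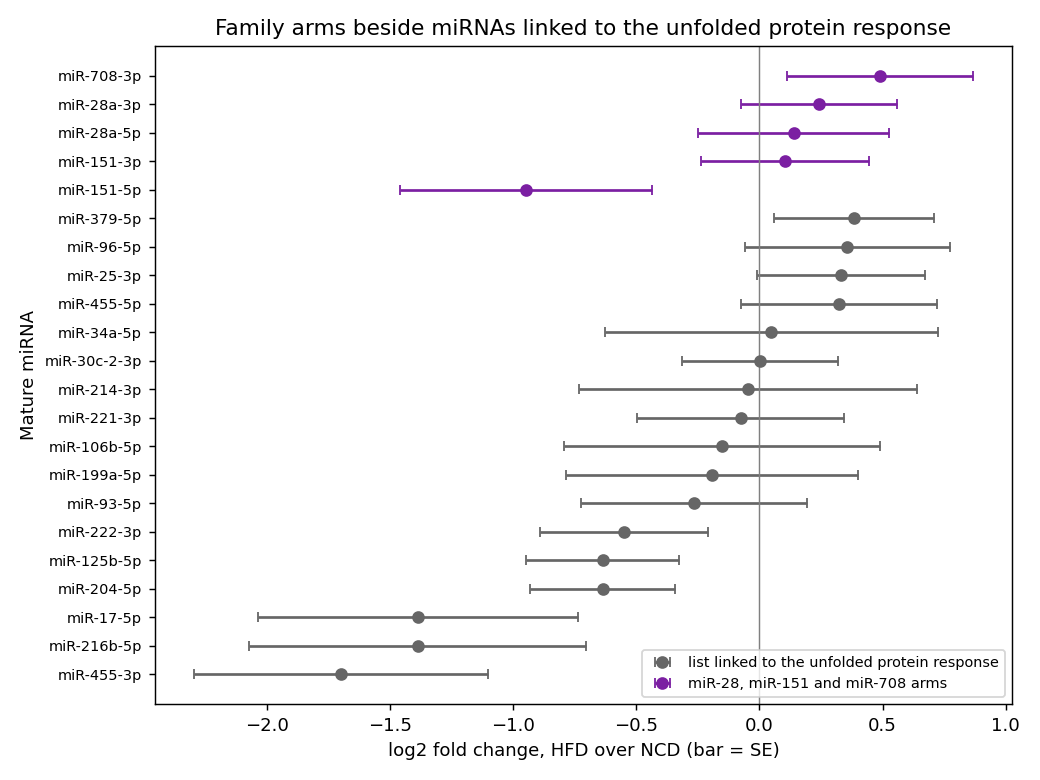
Log2 fold change, HFD over NCD, with SE bars, of the 5 tested family members (purple, top) and of the 17 tested miRNAs linked to the unfolded protein response (grey). None of these points passed the test, and the family members other than miR-151-5p lie between 0.10 and 0.49.

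Markers of other cells differed between libraries. In bulk islets, fewer cells of a type and less RNA per cell cannot be told apart. The 2 endothelial miRNAs summed to 299.8 to 434 CPM in HFD and 346 to 748 CPM in NCD libraries, led by miR-126a-3p with 726 CPM in NCD 1. The 4 acinar miRNAs summed to 20.2 to 205 CPM in HFD and 111 to 418 CPM in NCD libraries, led by miR-217-5p, which was highest in NCD 3. The 4 liver and muscle miRNAs summed to 48.3 to 130.4 CPM in HFD and 127 to 885 CPM in NCD libraries, led by miR-122-5p with 757 CPM in NCD 1. The 5 leukocyte miRNAs, led by miR-142a-5p, summed to 6.18 to 13.3 CPM in HFD and 13.02 to 30.4 CPM in NCD libraries. The 3 stromal miRNAs, led by miR-143-3p, summed to 1324 to 4967 CPM in HFD and 1510 to 2971 CPM in NCD libraries. The highest miR-143-3p was in HFD 2, where miR-151-3p was also highest on TMM-scaled totals. The other 2 stromal miRNAs were highest in other libraries, HFD 1 and NCD 3. Their log2 fold changes were negative, while that of miR-143-3p was positive. The 2 erythroid miRNAs, led by miR-451a, summed to 41.3 to 134 CPM in HFD and 33.4 to 127 CPM in NCD libraries. No marker was at 0 in all libraries, and the part of these cells in the family's levels was not tested.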

How the data were processed

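Small RNA libraries were made from islet total RNA, isolated on silica columns, with the NEBNext small RNA kit, per the labels' protocols. Such columns can lose short RNA. The genome build, miRNA annotation, aligner and counter are not given in the sources consulted. Raw read counts per mature miRNA were deposited by the authors, per the file headers. The authors' deposited TPM values equal CPM on each library's total to within a relative difference of 4.61e-09 and were used in 1 alternative only.

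Counts were tested with edgeR 4.0.16 (R 4.3.3) over the whole table: filterByExpr with a minimum count of 10, TMM factors, estimateDisp, then glmQLFit (non-legacy setting) and glmQLFTest with diet as the only term. Benjamini-Hochberg adjustment ran over 406 miRNAs, with a threshold of 0.05. The SE of an edgeR log2 fold change was derived from the test. It is the absolute log2 fold change divided by the square root of the quasi-likelihood F statistic. Library totals ran from 7166712 to 11172255 counts. The filter removed up to 0.0351% of the reads of a library. Each library was counted as its own sample. Pairs of libraries within a diet differed far beyond sampling noise (chi-square per degree of freedom 378.2 or more), which cannot show whether they are separate animals. Log2 arm ratios, with a prior count of 0.5 per arm, were compared with two-sided exact permutation tests (scipy 1.17.1). Hairpins, host genes and introns came from GENCODE M21. Of these steps, only the edgeR test was tried on simulated counts with known changes. Alternatives were RLE, upper quartile or no scaling factors, DESeq2 1.42.0, limma-voom and limma-trend (limma 3.58.1) with a pseudocount of 1, no filter, a filter at a mean count of 100, the replicate number as a block, each library left out, and a prior count of 5 per arm.

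The members and lists were chosen with earlier results of these data known. Besides the members, the miRNAs named are other carriers of a 5p seed, the 3 tested miRNAs closest to the more abundant arm of each hairpin by Pearson r, called and the 4 most abundant members of the unfolded protein response list, and the most abundant marker of each cell type. Exceptions are stated where they occur.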

Additional observations from a re-analysis of the deposited data

How the results depend on the processing

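No family member and no miRNA of the unfolded protein response list was called under any alternative run. The count of called miRNAs, 1 of 406, was 3 with DESeq2, 0 with limma-trend, 8 with no filter and 0 with library totals only, and ran from 0 to 4 with 1 library left out. miR-28a-5p reversed with library totals only (-0.23), a mean of at least 100 counts (-0.030) and limma-trend (-0.20), and ran from -0.019 to 0.30 with 1 library left out. miR-28a-3p reversed with library totals only (-0.088) and limma-trend (-0.083). miR-151-3p reversed with library totals only (-0.28), a mean of at least 100 counts (-0.069) and limma-trend (-0.30), and ran from -0.29 to 0.29 with 1 library left out. The median over all tested miRNAs, 0.015 in the main fit, moved under these settings too. It was -0.37 with library totals only, -0.064 with a mean of at least 100 counts and -0.25 with limma-trend. The cause of the reversals was not tested. miR-151-5p has no value with a mean of at least 100 counts, which it did not reach. The arm ratio of mir-28a ran from -0.34 to 0.057 with 1 library left out. Same-numbered libraries deviated from their diet means with correlations across miRNAs of 0.17, -0.24 and 0.35 for numbers 1, 2 and 3, not all above 0.1, and were not treated as paired. With the replicate number as a block, the count of calls stayed at 1 and the log2 fold change was -0.94 for miR-151-5p and 0.45 for miR-708-3p. Sign-flip tests of the arm ratios, blocked by number, cannot go below 0.25. Depth limits miR-708-5p, with 54 reads in all, and miR-151-5p, with 290.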
